A study of Homo sapiens with 12 samples.

Results

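This account covers 60 human genes of the nucleolus and of ribosome biogenesis, listed by symbol and read from a table of counts with 53712 named genes. All 60 symbols were found, and all 60 were among the 17228 genes that passed the filter on low counts. They fall into 4 roles: 11 RNA polymerase I factors, 24 factors of the small subunit processome and of small subunit maturation, 15 large subunit assembly factors, and 10 snoRNP and multifunctional nucleolar proteins. The RNA came from H9 cells, an established line of human embryonic stem cells, grown in RSeT, a medium sold for the naive state of pluripotency. Cultures received 1 of 3 oligo sets at 25 nM. ASO-L1 oligos are antisense to LINE1 (L1), the most active family of human retrotransposons, SO-L1 oligos are taken here as their sense-strand counterpart, a name the labels do not expand, and ASO-Ctr oligos are the antisense control. All 3 groups were then kept with 10 nM DZNep, which blocks S-adenosylhomocysteine hydrolase and so lowers histone methylation, and 5 nM TSA, a histone deacetylase inhibitor. All groups also had 0.7 µM trans-ISRIB, which blocks the integrated stress response, 5 µM emricasan, a caspase inhibitor, and 10 µM Y-27632, a ROCK inhibitor, which were withdrawn at 24 h, and unsorted cells were taken at 48 h. Each group has 4 libraries, numbered 1 to 4, and the labels do not say whether these are separate cultures, so the p-values measure the spread between these libraries, which may be technical. No untreated culture is in the series, and L1 RNA itself was not analysed here.

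The nucleolus forms around active ribosomal DNA. RNA polymerase I, brought there by RRN3, UBTF and the TAF1 proteins of the selectivity factor SL1, makes a long precursor RNA that the small subunit processome folds, modifies and cleaves, while a separate set of factors builds the large subunit. Small nucleolar ribonucleoproteins (snoRNPs) guide the methylation and pseudouridylation of that RNA, and growing stem cells keep the whole pathway at a high level.

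Promoter windows were searched for letters that members share. RefSeq (GRCh38.p14) gave a window of 300 bases, 250 before and 50 after the start, for 50 of the 60 genes. For the 10 genes with more than 1 start, the first listed start was used, and likewise for all other genes. The E-box CACGTG, a palindrome known as a site of MYC and related proteins, was present in 18 of the 50 windows (36.0%), against 8.88% of 15843 protein-coding genes in the same table. Within 50 bases of the start it was present in 16 of 50, against 3.61% of protein-coding genes. By role, 11 of 21 small subunit windows, 5 of 12 large subunit windows, 2 of 8 windows of the snoRNP group and 0 of 9 RNA polymerase I windows held it. The letters CCGGAAG, the core of the ETS motif, searched on both strands, were present in 18 of 50 windows (36.0%), against 14.2% of protein-coding genes, and in 7 of 9 RNA polymerase I, 5 of 21 small subunit, 4 of 12 large subunit and 2 of 8 snoRNP windows. Of the other letters searched on both strands, GGGCGG was in 64.0% of member windows and 58.5% of protein-coding windows, TCTCGCG in 16.0% and 4.96%, and GCATGC in 6 of the 50 windows and 7.97% of protein-coding windows. A window could hold more than 1 motif, and overlapping matches were not removed. These counts describe letters and do not show that a protein binds. The windows below are those of the 4 genes with an E-box that changed with ASO-L1, with the E-box in capitals: WDR43 (chr2:28894417-28894716, plus strand), UTP18 (chr17:51260296-51260595, plus strand) and NOL8 (chr9:92325301-92325600, minus strand), which were higher, and UTP20 (chr12:101279855-101280154, plus strand), which was lower. The E-box began 4 bases after the start in WDR43, 89 before and 5 after it in UTP18, 9 before it in NOL8 and 10 before it in UTP20.
WDR43: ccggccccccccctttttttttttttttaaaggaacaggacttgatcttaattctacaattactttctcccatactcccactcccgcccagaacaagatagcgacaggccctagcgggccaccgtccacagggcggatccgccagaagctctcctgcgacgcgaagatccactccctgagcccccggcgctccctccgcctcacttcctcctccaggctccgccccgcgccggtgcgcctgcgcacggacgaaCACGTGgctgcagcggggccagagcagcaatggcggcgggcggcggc
UTP18: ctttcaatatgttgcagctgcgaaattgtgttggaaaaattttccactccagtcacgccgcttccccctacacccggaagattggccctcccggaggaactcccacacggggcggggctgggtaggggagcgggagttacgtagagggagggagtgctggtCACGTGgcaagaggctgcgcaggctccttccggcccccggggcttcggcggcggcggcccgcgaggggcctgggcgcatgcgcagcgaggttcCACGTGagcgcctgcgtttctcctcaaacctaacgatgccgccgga
NOL8: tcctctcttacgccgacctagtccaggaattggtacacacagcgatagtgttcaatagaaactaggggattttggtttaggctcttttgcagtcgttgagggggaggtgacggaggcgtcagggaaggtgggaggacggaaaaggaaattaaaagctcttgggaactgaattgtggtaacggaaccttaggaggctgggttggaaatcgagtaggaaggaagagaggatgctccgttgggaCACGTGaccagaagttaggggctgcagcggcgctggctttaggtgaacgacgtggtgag
UTP20: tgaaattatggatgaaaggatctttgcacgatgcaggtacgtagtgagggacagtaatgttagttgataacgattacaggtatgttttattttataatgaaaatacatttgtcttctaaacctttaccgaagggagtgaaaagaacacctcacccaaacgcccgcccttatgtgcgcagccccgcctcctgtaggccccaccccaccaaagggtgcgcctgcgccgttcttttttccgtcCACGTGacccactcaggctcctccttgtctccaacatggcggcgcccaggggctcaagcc
The next windows are those of the RNA polymerase I factors RRN3 (chr16:15094286-15094585, minus strand) and TAF1A (chr1:222589884-222590183, minus strand), both higher with ASO-L1, with the ETS letters, here as CTTCCGG of the opposite strand, in capitals.
RRN3: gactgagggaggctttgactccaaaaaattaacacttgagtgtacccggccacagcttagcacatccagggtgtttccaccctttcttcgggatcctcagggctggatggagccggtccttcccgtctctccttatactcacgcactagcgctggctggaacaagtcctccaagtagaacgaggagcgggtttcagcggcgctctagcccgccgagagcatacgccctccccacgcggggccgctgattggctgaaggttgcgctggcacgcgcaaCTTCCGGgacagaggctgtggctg
TAF1A: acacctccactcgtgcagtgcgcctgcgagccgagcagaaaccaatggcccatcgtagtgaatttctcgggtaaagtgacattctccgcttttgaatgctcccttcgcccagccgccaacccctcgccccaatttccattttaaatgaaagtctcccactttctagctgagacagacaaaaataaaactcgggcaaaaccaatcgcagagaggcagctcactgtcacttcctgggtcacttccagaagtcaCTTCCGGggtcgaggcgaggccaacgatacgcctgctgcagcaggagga
The 18 genes with an E-box had 3 higher and 1 lower call between ASO-L1 and ASO-Ctr and a median log2 fold change of 0.124, and the 32 genes without had 5 higher and 3 lower calls and a median of 0.067. Over all genes 11.6% were higher and 10.7% lower, and with so few calls nothing is read from either count.

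Libraries held between 20367989 and 32180891 counts, of which the 60 genes took 1.08% to 1.29%. Counts were scaled to CPM, the usual unit that gives every library the same total, by effective library size, and values are given for libraries 1 to 4 in that order. Markers of pluripotent stem cells, 6 genes, summed to 4718 to 5361 CPM with ASO-L1, 5120 to 5847 CPM with SO-L1 and 5242 to 6035 CPM with ASO-Ctr. In the same order of groups, 6 markers of naive pluripotency summed to 258.5 to 303.9, 231.6 to 269.4 and 242 to 271.7 CPM. KLF17 among them did not exceed 1.23 CPM in any library. These sums hide single genes in the edgeR test of ASO-L1 over ASO-Ctr described below. KLF4 (log2 fold change 0.88), TFCP2L1 (0.74) and DNMT3L (0.70) were higher (adjusted p 4.75e-05, 4.09e-05 and 0.0329). The other naive markers did not pass, among them DPPA5 at -0.50. POU5F1 (-0.18), SOX2 (-0.23) and LIN28A (-0.18) were lower (0.00597, 0.000821 and 0.0186), and the other pluripotent markers did not pass. Neural progenitor markers, 4 genes of which NES gave nearly all counts, summed to 532.5 to 671.2 CPM with ASO-L1, 473.4 to 519.7 CPM with SO-L1 and 433.2 to 476.3 CPM with ASO-Ctr. Mesendoderm markers, 6 genes, summed to 14.9 to 15.7 CPM with ASO-L1, 9.04 to 11.3 with SO-L1 and 8.96 to 11.5 with ASO-Ctr. MIXL1 gave most of these counts, and no other gene of this list exceeded 0.534 CPM in any library. Fibroblast and feeder markers (8 genes) summed to 300.8 to 398.9 CPM with ASO-L1, 241.8 to 367.4 with SO-L1 and 254.8 to 382.8 with ASO-Ctr. Nearly all of these counts came from COL1A1, COL1A2 and THY1. Trophectoderm and amnion markers (8 genes) summed to 65.6 to 71.3, 63.5 to 79.4 and 65.0 to 82.3 CPM, most of it from TFAP2C. In the same edgeR test of ASO-L1 over ASO-Ctr, GATA2 (1.03, adjusted p = 0.00131) and KRT7 (0.95, 0.0242) of this list were higher. GATA2 did not exceed 2.95 CPM and KRT7 4.07 CPM in any library. NES (0.45, 0.000416), MIXL1 (0.61, 0.00118) and COL1A1 (0.80, 0.0425) were higher as well. The other neural, mesendoderm, fibroblast and trophectoderm markers did not pass or were too low to be tested. No gene of these 6 lists was at 0 in every library. Many stayed near 0 throughout, among them DCN (at most 0.0413 CPM), CGA (0.0494), SOX1 (0.104), SOX17 (0.123), LUM (0.124) and HAND1 (0.148). COL3A1 (at most 0.358 CPM) and PDGFRB (0.591) were low as well. The part of these markers in the results was not tested, and in bulk RNA fewer cells of a type and less RNA per cell cannot be told apart.

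ASO-L1 was compared with ASO-Ctr to ask how antisense oligos to L1 alter these genes. Most of the 60 genes stood slightly higher with ASO-L1: 49 had a positive and 11 a negative log2 fold change, with a median of 0.102, against a median of -0.001 over all genes tested. The changes were small, between -0.34 and 0.38, and in the counts that follow a gene is called higher or lower only where it passed the test. In edgeR's quasi-likelihood test with Benjamini-Hochberg adjustment over all genes (threshold 0.05), 11 genes were higher and 5 lower, and 44 did not pass. Over all genes, 22.3% were called, 11.6% higher and 10.7% lower. The count of 11 higher of 60 lies above that share and the count of 5 lower is near it, and neither count was tested as a set. The libraries of the 2 groups did not overlap for 14 genes that were higher and 6 that were lower, where 13.3% and 12.2% of all genes did so. A fit that blocks on the library number gave 32 higher and 7 lower members, against 45% of all genes called, 22.5% higher and 22.5% lower. None of the 16 genes called without the block was lost with it.

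**Figure D1:**
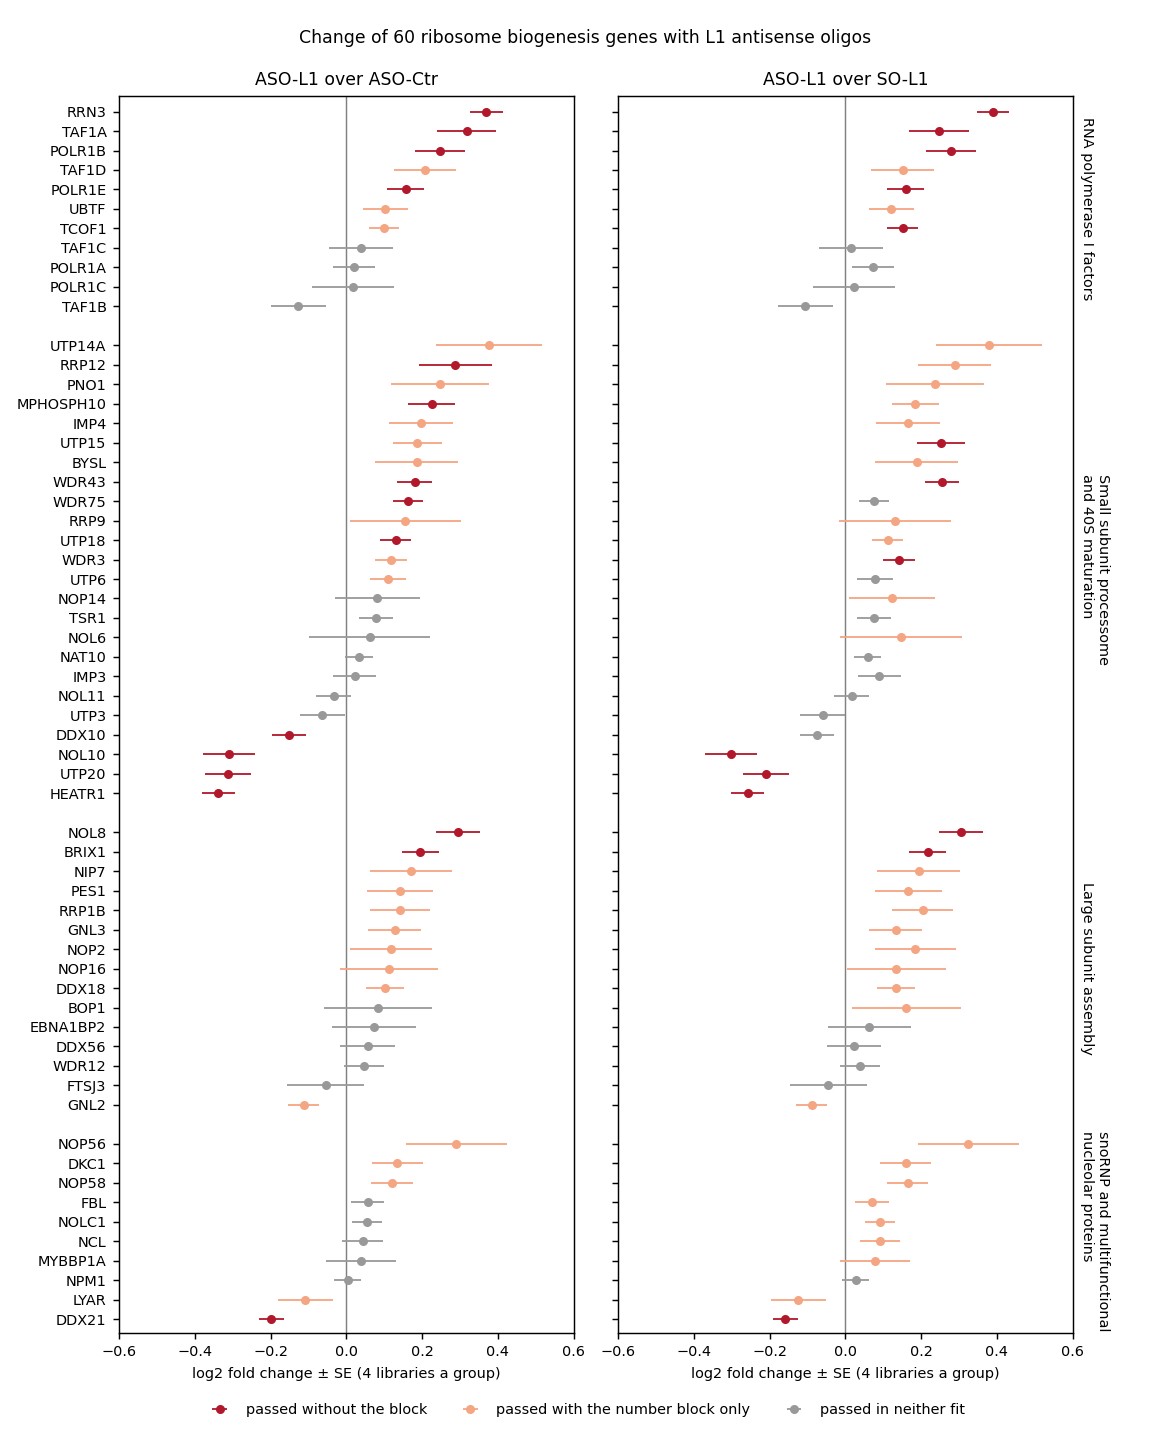
Log2 fold changes (x axis, point with SE) of the 60 genes (y axis, by role) for ASO-L1 over ASO-Ctr on the left and ASO-L1 over SO-L1 on the right, from 4 libraries a group. Most points lie right of 0 in both panels, while HEATR1, UTP20, NOL10 and DDX21 lie clearly left of it. Red marks genes that passed without the block, orange those that passed with it only and grey those that passed in neither fit; both panels share the ASO-L1 libraries.

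Among the RNA polymerase I factors, 4 of 11 were higher with ASO-L1, none was lower and 7 did not pass. Of all genes, 11.6% were higher and 10.7% lower. With the block 7 were higher and none lower, against 22.5% of all genes each way. RRN3, which ties RNA polymerase I to the promoter of the ribosomal DNA, stood at 84.0, 80.1, 76.9 and 81.6 CPM with ASO-L1, against 62.2, 63.5, 60.4 and 63.7 CPM with ASO-Ctr. Its lowest ASO-L1 library lay well above its highest ASO-Ctr library, and its log2 fold change of 0.37 ± 0.04 (adjusted p = 5.34e-05) corresponds to 1.29-fold. The 3 RRN3 pseudogenes reached at most 17.3% of the RRN3 level in a library and summed to a mean of 11.1 CPM with ASO-L1, against 8.27 CPM with ASO-Ctr, and how reads shared between them were counted is not given in the sources used here. TAF1A, a subunit of SL1, had 11.2, 12.9, 10.8 and 10.2 CPM with ASO-L1, against 8.86, 9.49, 9.11 and 8.72 CPM with ASO-Ctr. The groups did not overlap, and the log2 fold change was 0.32 ± 0.08 (adjusted p = 0.0113). POLR1B, the second-largest subunit of the polymerase, had 105, 105, 105 and 108 CPM with ASO-L1, against 83.6, 89.6, 89.9 and 92.8 CPM with ASO-Ctr. The ASO-L1 libraries lay close together and above all ASO-Ctr libraries (0.25 ± 0.07, adjusted p = 0.0175). POLR1E, a further subunit, had 37.6, 37.3, 38.7 and 37.4 CPM with ASO-L1, against 34.4, 32.4, 33.2 and 35.5 CPM with ASO-Ctr, again without overlap (0.16 ± 0.05, adjusted p = 0.0343).

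The other RNA polymerase I factors did not pass without the block. UBTF, which binds along the ribosomal DNA, had 184, 184, 192 and 190.2 CPM with ASO-L1, against 168, 167, 181 and 183 CPM with ASO-Ctr. Its groups did not overlap but lay close, with a log2 fold change of 0.10 ± 0.06 (adjusted p = 0.256, with the block 0.00866). POLR1A, the largest subunit, had 129.5, 131, 124 and 124 CPM with ASO-L1, against 118, 119, 131 and 133 CPM with ASO-Ctr. Here ASO-L1 libraries 1 and 2 were above, and libraries 3 and 4 below, the ASO-Ctr libraries of the same numbers, and the log2 fold change over all 4 was 0.02 ± 0.06 (adjusted p = 0.849). TAF1D of SL1 (0.21 ± 0.08, adjusted p = 0.096) and TCOF1, the treacle protein of ribosomal DNA transcription (0.10 ± 0.04, adjusted p = 0.101), passed with the block, at 3.05e-05 and 0.00789. TAF1B, another SL1 subunit, had the smallest value of the role, -0.13 ± 0.07 (adjusted p = 0.249). TAF1C of SL1 (0.04) and the polymerase subunit POLR1C (0.02) also passed in neither fit. The SL1 subunits therefore gave values of both signs, and TAF1A was the only one of the 4 to pass without the block. POLR1E lost its call without ASO-L1 1, 2, 3 or 4, SO-L1 3 or ASO-Ctr 1, 2 or 3 (adjusted p 0.0511 to 0.0993), and POLR1B without ASO-Ctr 1 (0.0545). With libraries 3 and 4 alone, TAF1A gave 0.24 (adjusted p = 0.0605).

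Small subunit factors were called in both directions, as were all genes. Of 24, 5 were higher, 4 lower and 15 not past the test, against 11.6% higher and 10.7% lower of all genes. With the block 13 were higher and 4 lower, against 22.5% of all genes each way. WDR43 and WDR75 are WD-repeat proteins of the UTP-A complex, which binds the precursor RNA before the rest of the processome. WDR43 had 197, 199, 211 and 212 CPM with ASO-L1, against 170.1, 181, 183 and 189 CPM with ASO-Ctr. WDR75 had 155, 155, 149 and 154 CPM with ASO-L1, against 130.3, 140.0, 133 and 144 CPM with ASO-Ctr. In both genes every ASO-L1 library was above every ASO-Ctr library, with log2 fold changes of 0.18 ± 0.05 (adjusted p = 0.0126) and 0.16 ± 0.04 (adjusted p = 0.00907). HEATR1, a very large protein of the same complex, went the other way, with 129, 136, 127 and 133 CPM with ASO-L1, against 168, 172, 158 and 166 CPM with ASO-Ctr. Its highest ASO-L1 library lay below its lowest ASO-Ctr library, and its log2 fold change was -0.34 ± 0.04 (adjusted p = 0.000113). UTP15 (0.19 ± 0.06, adjusted p = 0.0526, with the block 0.000305) and NOL11 (-0.03 ± 0.05, adjusted p = 0.663), also of UTP-A, did not pass without the block.

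MPHOSPH10, which forms a complex with IMP3 and IMP4 that pairs U3 snoRNA with the precursor, had 82.2, 82.97, 94.2 and 97.2 CPM with ASO-L1, against 71.9, 75.1, 77.4 and 80.5 CPM with ASO-Ctr. The groups did not overlap (0.23 ± 0.06, adjusted p = 0.0195), and its 2 partners gave 0.20 ± 0.08 for IMP4 (adjusted p = 0.118, with the block 6.59e-06) and 0.02 ± 0.06 for IMP3 (adjusted p = 0.837). UTP18, of the UTP-B complex, had 106, 109, 98.5 and 103 CPM with ASO-L1, against 96.5, 96.3, 92.0 and 94.9 CPM with ASO-Ctr. The lowest ASO-L1 library lay just above the highest ASO-Ctr library (0.13 ± 0.04, adjusted p = 0.0363). RRP12, an export factor of ribosomal precursors, was the fifth higher member (0.29 ± 0.10, adjusted p = 0.0474).

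UTP20, a scaffold of the processome, had 76.8, 80.9, 78.8 and 85.0 CPM with ASO-L1, against 90.3, 97.4, 109.7 and 102 CPM with ASO-Ctr. NOL10, a WD-repeat protein of the processome, had 41.7, 41.8, 48.5 and 47.3 CPM with ASO-L1, against 52.6, 54.3, 59.4 and 55.8 CPM with ASO-Ctr. DDX10, an RNA helicase of the DEAD-box family, had 71.1, 70.1, 71.8 and 72.4 CPM with ASO-L1, against 77.8, 82.0, 77.4 and 79.7 CPM with ASO-Ctr. In each of these 3 genes all ASO-L1 libraries were below all ASO-Ctr libraries, with log2 fold changes of -0.31 ± 0.06 (adjusted p = 0.00268), -0.31 ± 0.07 (adjusted p = 0.00553) and -0.15 ± 0.04 (adjusted p = 0.0267). UTP14A, a processome factor needed for its later steps, had the largest value of all 60 genes without passing: it had 116, 112, 142 and 141 CPM with ASO-L1, against 81.9, 85.2, 109.6 and 117 CPM with ASO-Ctr. Libraries 3 and 4 were higher than libraries 1 and 2 in both groups, so the groups overlapped, and its log2 fold change of 0.38 ± 0.14 had an adjusted p of 0.0742 without and 3.12e-11 with the block. PNO1, an RNA-binding factor of small subunit maturation, showed the same layout of libraries (0.25 ± 0.13, adjusted p = 0.205, with the block 3.09e-06). The other 9 small subunit members (BYSL, RRP9, WDR3, UTP6, NOP14, TSR1, NOL6, NAT10 and UTP3) gave log2 fold changes between -0.06 and 0.19, and the first 4 of these passed with the block. Leaving out 1 library ended the call of UTP18 (ASO-L1 1, 2 or 4, SO-L1 3 or 4, ASO-Ctr 1, 2, 3 or 4, adjusted p 0.0501 to 0.139) and of RRP12 (ASO-L1 1, 2, 3 or 4, ASO-Ctr 1, 2 or 4, 0.057 to 0.129). It also ended that of DDX10 (ASO-L1 2 or 3, ASO-Ctr 2 or 4, 0.0536 to 0.0765) and of MPHOSPH10 (ASO-L1 3 or 4, ASO-Ctr 1, 0.0589 to 0.0612).

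**Figure D2:**
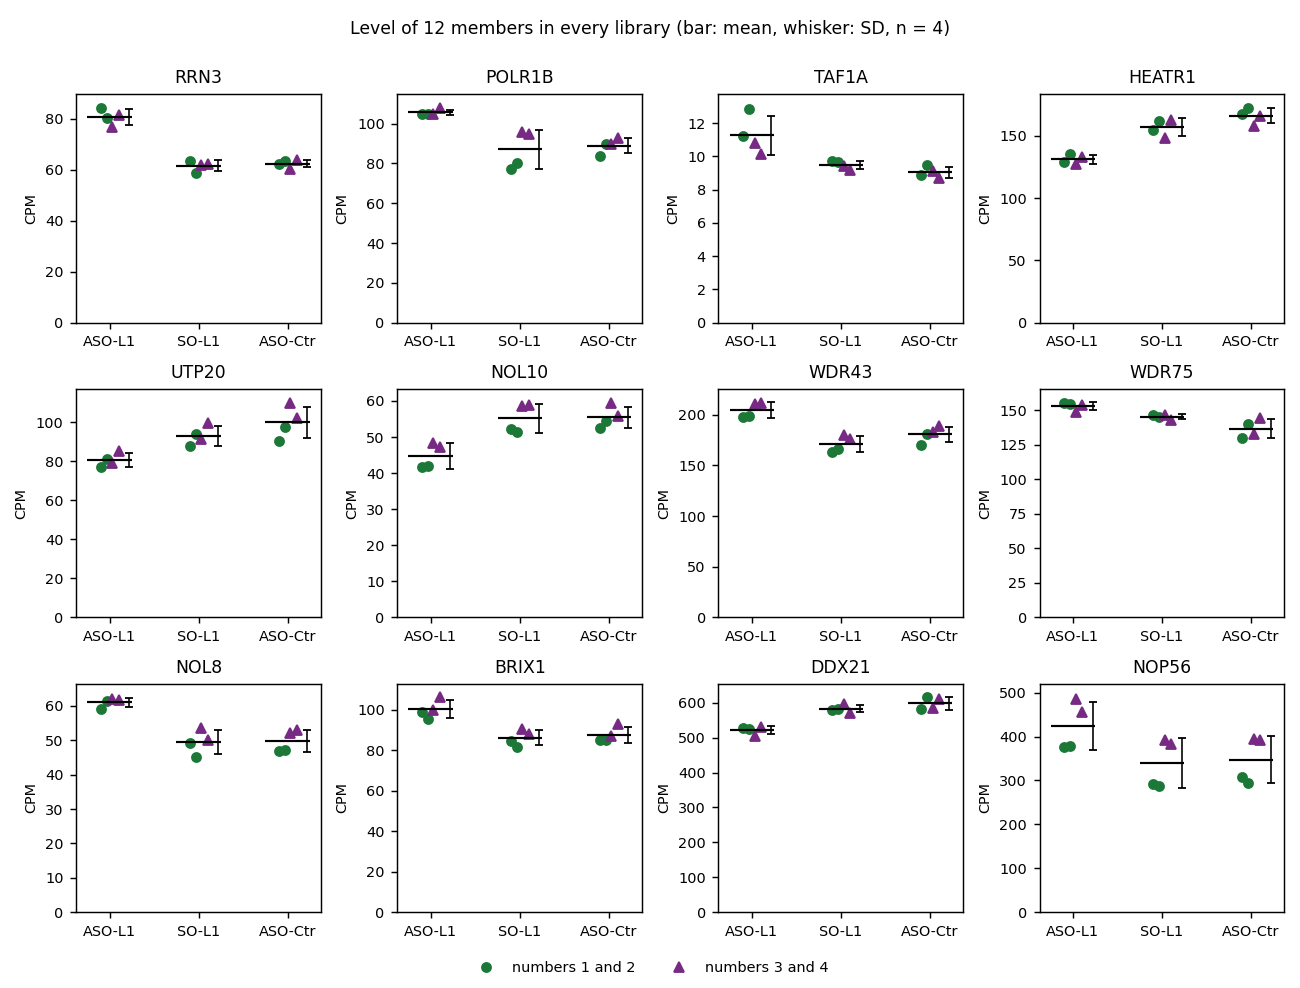
Level in CPM (y axis, from 0) of 12 members in every library, by oligo group (x axis), with circles for libraries 1 and 2, triangles for libraries 3 and 4, a bar for the mean and a whisker for the SD of 4 libraries. RRN3, NOL8 and BRIX1 lie higher, and HEATR1, UTP20, NOL10 and DDX21 lower, in ASO-L1 than in either other group, while NOP56 shows the gap between number sets inside each group.

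Of the large subunit factors, 2 of 15 were higher, none was lower and 13 did not pass. The count of higher ones is near the share of all genes, where 11.6% were higher and 10.7% lower. With the block 9 were higher and 1 lower, against 22.5% of all genes each way. NOL8, a nucleolar RNA-binding protein, had 59.1, 61.4, 62.02 and 61.8 CPM with ASO-L1, against 47.0, 47.2, 52.2 and 52.9 CPM with ASO-Ctr. BRIX1, which acts in the early assembly of the large subunit, had 98.9, 95.6, 99.9 and 106 CPM with ASO-L1, against 84.9, 84.9, 87.2 and 92.8 CPM with ASO-Ctr. Neither gene's groups overlapped, and the log2 fold changes were 0.29 ± 0.06 (adjusted p = 0.00294) and 0.20 ± 0.05 (adjusted p = 0.0107). PES1, which forms the PeBoW complex with BOP1 and WDR12, had 181, 191, 209 and 211 CPM with ASO-L1, against 166, 166, 188 and 196 CPM with ASO-Ctr. Each ASO-L1 library was above the ASO-Ctr library of its number, yet the groups overlapped, and the log2 fold change of 0.14 ± 0.09 had an adjusted p of 0.293 without and 0.000334 with the block. BOP1 (0.08 ± 0.14, adjusted p = 0.738) and WDR12 (0.05 ± 0.05, adjusted p = 0.586) passed in neither fit. NIP7 (0.17 ± 0.11, block adjusted p = 0.000197) and RRP1B (0.14 ± 0.08, block adjusted p = 0.000402) passed with the block alone. So did GNL2, a nucleolar GTPase, on the lower side: it had 152, 153, 156 and 158 CPM with ASO-L1, against 167, 168, 159.7 and 174 CPM with ASO-Ctr, without overlap (-0.11 ± 0.04, adjusted p = 0.0669, with the block 0.00396). The other 7 members of the role (GNL3, NOP2, NOP16, DDX18, EBNA1BP2, DDX56 and FTSJ3) gave log2 fold changes between -0.05 and 0.13, and the first 4 of these passed with the block.

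The snoRNP and multifunctional group had no higher and 1 lower member of 10, against 11.6% higher and 10.7% lower of all genes. With the block it had 3 higher and 2 lower, against 22.5% of all genes each way. DDX21, a helicase that binds both RNA polymerase I transcripts and snoRNAs, had 528, 525, 504 and 531 CPM with ASO-L1, against 581.8, 618, 585 and 611 CPM with ASO-Ctr. All ASO-L1 libraries were below all ASO-Ctr libraries (-0.20 ± 0.03, adjusted p = 0.00108, 0.872-fold). NOP56, a core protein of the box C/D snoRNPs, had 377, 379, 485 and 456 CPM with ASO-L1, against 308, 294, 394 and 391 CPM with ASO-Ctr. ASO-L1 was above ASO-Ctr at each number, but libraries 3 and 4 of ASO-Ctr exceeded libraries 1 and 2 of ASO-L1, and the log2 fold change of 0.29 ± 0.13 had an adjusted p of 0.147 without and 2.11e-10 with the block. DKC1, the pseudouridine synthase of the H/ACA snoRNPs, had 236, 236, 255 and 263 CPM with ASO-L1, against 212, 211, 234 and 245 CPM with ASO-Ctr. ASO-L1 was again above ASO-Ctr at each number, and ASO-Ctr 4 lay above ASO-L1 1 and 2 (0.13 ± 0.07, adjusted p = 0.182, with the block 0.000211). NOP58, the partner of NOP56 (0.12 ± 0.05, with the block 0.000926), and LYAR on the lower side (-0.11 ± 0.07, with the block 0.0185) also passed with the block alone. NOLC1 (0.06) and MYBBP1A (0.04) passed in neither fit.

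The 3 proteins most used as nucleolar markers did not pass the test. NCL (nucleolin) had 2014, 2090.5, 2119.5 and 2227 CPM with ASO-L1, against 1923, 2056, 2062 and 2162 CPM with ASO-Ctr. NPM1 (nucleophosmin) had 1932, 1917, 1809.7 and 1934 CPM with ASO-L1, against 1864, 1962, 1825 and 1926 CPM with ASO-Ctr. FBL (fibrillarin), the box C/D methyltransferase, had 366, 384, 375 and 402 CPM with ASO-L1, against 348, 379, 357 and 384 CPM with ASO-Ctr. The groups overlapped in all 3, and the log2 fold changes were 0.04 ± 0.05 (adjusted p = 0.635), 0.00 ± 0.04 (adjusted p = 0.968) and 0.06 ± 0.04 (adjusted p = 0.424), none past the test with or without the block. NPM1 had 45 pseudogene rows, which together stayed at or below 0.198% of its own level. Summed over the 60 genes, the level was 11852, 11895, 12316 and 12637 CPM with ASO-L1, against 11126, 11574, 11836 and 12281 CPM with ASO-Ctr, so the groups overlapped. The 11 RNA polymerase I factors alone summed to 1245.1, 1242.3, 1238.6 and 1211.6 CPM with ASO-L1, against 1134.1, 1111.2, 1129.7 and 1153.9 CPM with ASO-Ctr, without overlap.

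**Figure D3:**
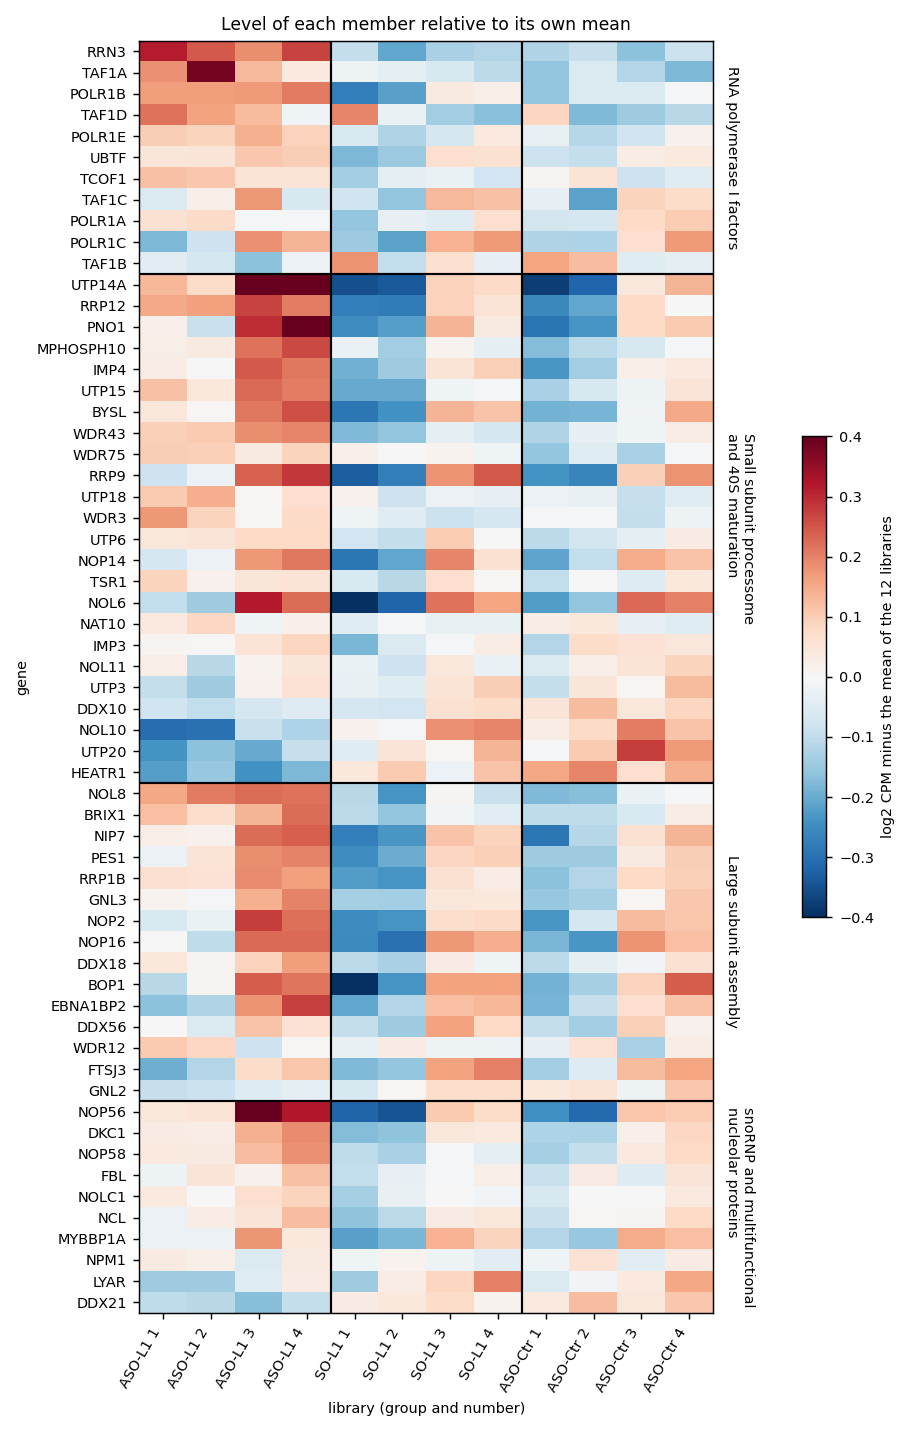
Log2 CPM of each of the 60 genes (rows, by role) in each of the 12 libraries (columns, by group and number) minus the gene's mean over the 12 libraries, on a colour scale that ends at -0.4 and 0.4. RRN3 is red across ASO-L1 and HEATR1 blue across ASO-L1, while genes such as NOL6 and RRP9 change colour between libraries 2 and 3 inside every group.

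SO-L1 gives a second control, and the comparison of ASO-L1 with SO-L1 shares the ASO-L1 libraries with the one above. Here 10 genes were higher, 4 lower and 46 not past the test, against 20.3% of all genes called, 10.7% higher and 9.64% lower. With no filter on low counts 6 were higher and 4 lower, against 4.42% and 3.69%. The median log2 fold change was 0.126, against -0.003 over all genes. Groups did not overlap for 14 genes that were higher and 4 that were lower, against 12.7% and 11.5% of all genes. In the blocked fit 37 were higher and 6 lower, against 43.4% of all genes called, 21.6% higher and 21.7% lower. By role, 5 RNA polymerase I factors were higher and none lower, 3 small subunit factors were higher and 3 lower, 2 large subunit factors were higher and none lower, and the snoRNP group had 1 lower and none higher.

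RRN3 averaged 80.7 ± 2.997 CPM with ASO-L1 and had 63.4, 58.6, 61.8 and 62.4 CPM with SO-L1. POLR1B averaged 106 ± 1.40 CPM with ASO-L1 and had 77.1, 80.4, 95.7 and 94.9 CPM with SO-L1. Neither overlapped, and their log2 fold changes over SO-L1 were 0.39 ± 0.04 (adjusted p = 4.28e-05) and 0.28 ± 0.07 (adjusted p = 0.01). TCOF1, which did not pass against ASO-Ctr without the block, had 368, 366, 352 and 353 CPM with ASO-L1, against 309, 331, 333 and 322 CPM with SO-L1, without overlap (0.15 ± 0.04, adjusted p = 0.0173). POLR1E averaged 37.8 ± 0.646 CPM with ASO-L1 and had 33.6, 32.3, 33.4 and 36.0 CPM with SO-L1 (0.16 ± 0.05, adjusted p = 0.0348), and TAF1A passed as well (0.25 ± 0.08, adjusted p = 0.0423). UBTF (0.12 ± 0.06, adjusted p = 0.181, with the block 0.00212) and TAF1D (0.15 ± 0.08, adjusted p = 0.233, with the block 0.000996) passed with the block alone, and POLR1A (0.07 ± 0.06, adjusted p = 0.403) and TAF1B (-0.11 ± 0.07, adjusted p = 0.351) in neither fit. TAF1A lost its call without ASO-L1 1, 2 or 3 or any 1 of the SO-L1 or ASO-Ctr libraries (adjusted p 0.0507 to 0.145), and POLR1E without any 1 of the ASO-L1 libraries or SO-L1 1, 2 or 3 (0.0602 to 0.108). TCOF1 lost it without ASO-L1 1 or 2 or SO-L1 1 (0.0535 to 0.069).

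Of the small subunit factors, WDR43 averaged 205 ± 7.61 CPM with ASO-L1 and had 164, 166, 180.1 and 176 CPM with SO-L1. UTP15, a subunit of UTP-A, had 48.6, 46.2, 52.5 and 51.7 CPM with ASO-L1, against 39.0, 39.0, 44.3 and 44.7 CPM with SO-L1. WDR3, of UTP-B, had 109, 103, 96.8 and 102 CPM with ASO-L1, against 95.4, 93.4, 91.0 and 92.2 CPM with SO-L1. All ASO-L1 libraries of these 3 genes were above all SO-L1 libraries, with log2 fold changes of 0.26 ± 0.05 (adjusted p = 0.0017), 0.25 ± 0.06 (adjusted p = 0.0141) and 0.14 ± 0.04 (adjusted p = 0.033). HEATR1 averaged 131 ± 3.68 CPM with ASO-L1 and had 155, 162, 148 and 163 CPM with SO-L1. NOL10 averaged 44.8 ± 3.56 CPM with ASO-L1 and had 52.1, 51.3, 58.5 and 58.9 CPM with SO-L1. UTP20 averaged 80.4 ± 3.52 CPM with ASO-L1 and had 87.5, 93.9, 91.1 and 99.6 CPM with SO-L1. These 3 were lower without overlap, by log2 fold changes of -0.26 ± 0.04 (adjusted p = 0.00102), -0.30 ± 0.07 (adjusted p = 0.00732) and -0.21 ± 0.06 (adjusted p = 0.0272). WDR75 gave 0.08 ± 0.04 (adjusted p = 0.204) and DDX10 -0.07 ± 0.04 (adjusted p = 0.277), which passed in neither fit against SO-L1, and whether their changes differ between the 2 controls was tested by the comparison of SO-L1 with ASO-Ctr below. UTP14A gave 0.38 ± 0.14 (adjusted p = 0.0769), RRP12 0.29 ± 0.10 (adjusted p = 0.0505) and PNO1 0.24 ± 0.13 (adjusted p = 0.234), and all 3 passed with the block, at 3.16e-11, 1.24e-06 and 7.07e-06. WDR3 lost its call without ASO-L1 1, 2 or 4 or SO-L1 2, 3 or 4 (adjusted p 0.0707 to 0.134), and UTP20 without ASO-L1 1 or 3 or SO-L1 2 or 4 (0.06 to 0.0776).

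Of the large subunit and snoRNP factors, NOL8 averaged 61.1 ± 1.32 CPM with ASO-L1 and had 49.2, 45.1, 53.5 and 49.97 CPM with SO-L1 (0.30 ± 0.06, adjusted p = 0.00266). BRIX1 averaged 100.1 ± 4.42 CPM with ASO-L1 and had 84.4, 81.8, 90.2 and 88.2 CPM with SO-L1 (0.22 ± 0.05, adjusted p = 0.00673). DDX21 averaged 522 ± 12.2 CPM with ASO-L1 and had 579, 583, 596 and 572 CPM with SO-L1 (-0.16 ± 0.03, adjusted p = 0.00533). The groups did not overlap in any of the 3, with the same direction as against ASO-Ctr. PES1 (0.17 ± 0.09, with the block 3.92e-05), RRP1B (0.20 ± 0.08, with the block 2.52e-06) and NOP2, an RNA methyltransferase (0.18 ± 0.11, with the block 2.03e-05), passed with the block alone, while GNL2 had the smallest value of its role (-0.09 ± 0.04, adjusted p = 0.156, with the block 0.0234). NOP56 averaged 424 ± 54.7 CPM with ASO-L1 and had 292, 287, 392 and 384 CPM with SO-L1. Again libraries 3 and 4 of SO-L1 exceeded libraries 1 and 2 of ASO-L1, and NOP56 (0.32 ± 0.13, adjusted p = 0.109), NOP58 (0.16 ± 0.05, adjusted p = 0.0503) and DKC1 (0.16 ± 0.07, adjusted p = 0.119) passed with the block, at 1.69e-11, 2.33e-05 and 2.39e-05. NCL gave 0.09 ± 0.05 (adjusted p = 0.272), FBL 0.07 ± 0.04 (adjusted p = 0.308) and NPM1 0.03 ± 0.04 (adjusted p = 0.654). Of these 3, NCL and FBL passed with the block (0.00493 and 0.0396) and NPM1 did not (0.445).

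The authors' deposited table, which covers ASO-L1 over SO-L1, has the same sign for all 60 genes as the edgeR fit, from the same libraries. At its adjusted p under 0.05, the authors' deposited table had 29 members higher and 5 lower, against 12.9% higher and 12.2% lower of its 21414 genes, with a median log2 fold change of 0.127. By role, the authors' deposited table called 7 RNA polymerase I factors higher and none lower, 9 small subunit factors higher and 3 lower, 8 large subunit factors higher and none lower, and 5 of the snoRNP group higher and 2 lower.

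The 2 control oligo sets, SO-L1 and ASO-Ctr, were compared to ask whether the controls themselves differ. None of the 60 passed edgeR's quasi-likelihood test with or without the block, where 0.029% of all genes passed without it and 1.41% with it. At an unadjusted p under 0.05, 1 of the 60 was found by edgeR, 1 by DESeq2 and 1 by limma-voom, and the last 2 called none after adjustment. The share of all genes at that unadjusted p was 3.06% in edgeR, and with the block it was 9.5%, and 7 of the 60 members were found. Log2 fold changes of SO-L1 over ASO-Ctr lay between -0.10 and 0.09, with a median of -0.022, and 45 were negative. The median was positive without SO-L1 1, SO-L1 2 or ASO-Ctr 4 (0.012, 0.012 and 0.008). For none of the 60 genes did the 2 groups stand apart without overlap, in either direction, against 2.3% of all genes, 1.04% higher and 1.26% lower. The largest value was that of WDR75 (0.09 ± 0.04, adjusted p = 1), which averaged 145 ± 1.70 CPM with SO-L1 and 137 ± 6.55 CPM with ASO-Ctr. The smallest was that of UTP20 (-0.10 ± 0.06, adjusted p = 1), which averaged 93.0 ± 5.07 CPM with SO-L1 and 99.8 ± 8.11 CPM with ASO-Ctr. By role the extremes were TAF1A (0.07 ± 0.08) and POLR1A (-0.05 ± 0.06), DDX56 (0.03 ± 0.07) and BOP1 (-0.08 ± 0.14), and LYAR (0.02 ± 0.07) and NCL (-0.05 ± 0.05), none past the test.

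Libraries 3 and 4 stood apart from libraries 1 and 2 in all 3 oligo groups. What a number shares is not in the labels, and the sets were known from the data, so their levels are described without a test. In 35 of the 60 genes libraries 3 and 4 were above libraries 1 and 2 without overlap in each group, and in 1 gene, WDR3, they were below, against 19.5% and 19% of all genes. The higher ones were 13 of 15 large subunit factors, 12 of 24 small subunit factors, 7 of 10 of the snoRNP group and 3 of 11 RNA polymerase I factors. NOL6, a processome protein, had 103, 100.04, 138 and 129 CPM with ASO-L1, 83.5, 88.5, 128 and 123 CPM with SO-L1 and 94.7, 98.9, 129 and 127 CPM with ASO-Ctr. RRP9, a U3 snoRNP protein, had 68.3, 71.1, 85.1 and 87.9 CPM with ASO-L1, 57.6, 59.7, 81.9 and 85.7 CPM with SO-L1 and 61.2, 60.2, 77.2 and 81.8 CPM with ASO-Ctr. BOP1 had 16.5, 18.0, 21.1 and 20.7 CPM with ASO-L1, 13.05, 15.2, 19.98 and 19.96 CPM with SO-L1 and 15.7, 16.3, 19.0 and 21.1 CPM with ASO-Ctr. Over the 3 groups, libraries 3 and 4 were 1.36-fold higher than libraries 1 and 2 for NOL6, 1.32-fold for RRP9, 1.29-fold for BOP1 and 1.3-fold for NOP56. For these genes the step between number sets was larger, on the log2 scale, than their fold change between any 2 oligo groups. Their steps are among the largest of the 60 genes, so this does not describe the other members. RRN3 (0.99-fold) and HEATR1 (0.972-fold), which had the smallest adjusted p-values of the higher and of the lower members with ASO-L1, had nearly equal levels in both number sets.

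**Figure D4:**
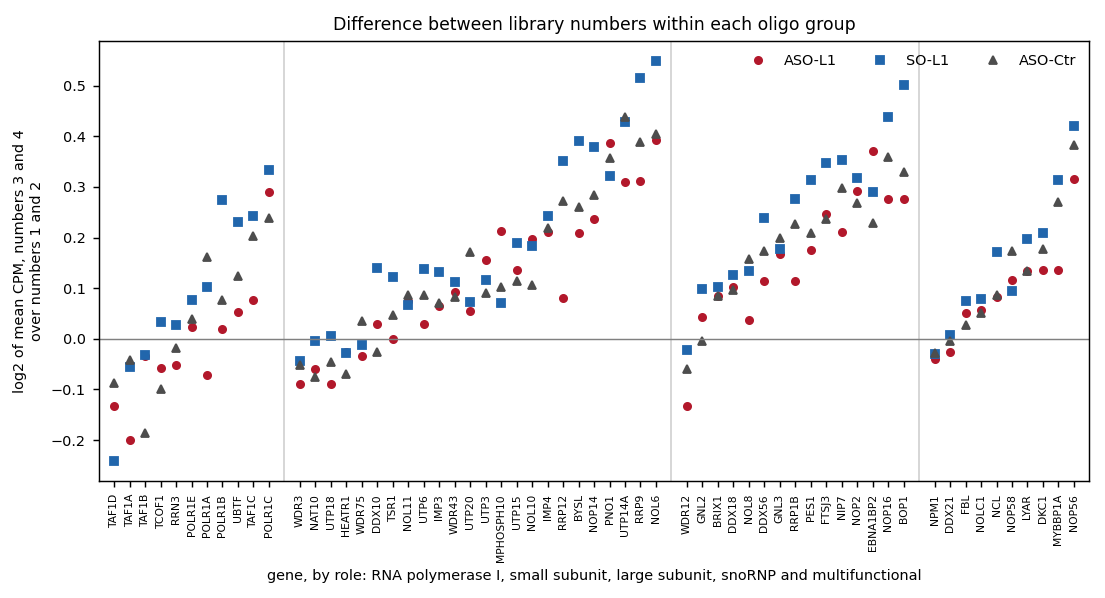
Log2 of the mean CPM of libraries 3 and 4 over that of libraries 1 and 2 (y axis) for each of the 60 genes (x axis, by role and then by size), with 1 symbol for each oligo group. Most large subunit and snoRNP genes lie above 0 in all 3 groups, while RNA polymerase I factors lie on both sides of 0.

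The change with ASO-L1 over ASO-Ctr was then set side by side in the 2 number sets. With libraries 1 and 2 alone, 30 of the 60 genes were higher and 7 lower, against 17.6% higher and 17.6% lower of all genes. With libraries 3 and 4 alone, 27 were higher and 5 lower, against 17.9% higher and 17% lower. Over SO-L1, 36 were higher and 4 lower in libraries 1 and 2, against 17.3% and 16.9%, and 26 were higher and 7 lower in libraries 3 and 4, against 17.6% and 16%. The RNA polymerase I factors had 6 higher and 1 lower in libraries 1 and 2, and 5 higher and none lower in libraries 3 and 4. In the interaction test no member's change differed between the sets after adjustment, where 0.778% of all genes did. POLR1A came nearest (adjusted p = 0.0558), with 129.5 and 131 CPM in ASO-L1 1 and 2, against 118.1 and 118.5 CPM in ASO-Ctr 1 and 2, and 123.9 and 123.9 CPM in ASO-L1 3 and 4, against 131.4 and 133.4 CPM in ASO-Ctr 3 and 4. It passed that test with the block (adjusted p = 0.0305). It did not pass in limma-voom (0.104), with RLE factors (0.0591) or with no filter on low counts (0.0557). With a library left out, a group and number set held a single library, so nothing is read from those fits.

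Coding length and snoRNA content were described across the members. In GENCODE 29 the coding length of the 60 genes ran from 540 to 8355 bases. Pearson's r between log2 coding length and the log2 fold change of ASO-L1 over ASO-Ctr was -0.274 and Spearman's rho -0.212 across the 60 genes, which share libraries and are not independent. Over SO-L1, with the same ASO-L1 libraries, they were weaker, at -0.187 and -0.119. With the genes in 4 equal bins of 15 by length, from short to long, the medians were 0.112, 0.13, 0.084 and 0.038. HEATR1 and UTP20, both lower with ASO-L1, have the longest coding regions of the list. The span of 10 members contains a small nucleolar RNA gene, and these are POLR1C, TAF1D, NOL11, WDR43, TSR1, GNL3, NCL, DKC1, NOP56 and NOP58. Among these hosts 1 was higher and none lower against ASO-Ctr (6 and none in the blocked fit), the median being 0.124. Among the other 50 genes 10 were higher and 5 lower (26 and 7 in the blocked fit), with a median of 0.1. Over all genes 11.6% were higher and 10.7% lower (22.5% each in the blocked fit), so the count of hosts without the block is near the share of all genes.

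Ribosome biogenesis genes outside the 60 were counted in the same way. Of 84 such genes on a list chosen with earlier results of these data known, 83 were tested. With ASO-L1 over ASO-Ctr 19 were higher and 4 lower (38 and 8 in the blocked fit), the median being 0.073, where 11.6% of all genes were higher and 10.7% lower (22.5% each in the blocked fit). Over SO-L1 14 were higher and 3 lower (37 and 3 in the blocked fit), the median being 0.091, where 10.7% of all genes were higher and 9.64% lower (21.6% and 21.7% in the blocked fit). SBDS, which frees the large subunit of its last assembly factor, had 60.5, 54.8, 63.9 and 64.1 CPM with ASO-L1, against 37.3, 42.1, 40.7 and 42.9 CPM with ASO-Ctr. Its groups were far apart, and its log2 fold change of 0.58 ± 0.06 (adjusted p = 2.23e-05) exceeded that of every one of the 60 members. MAK16 (0.25 ± 0.05, adjusted p = 0.00219) and WDR74 (0.35 ± 0.07, adjusted p = 0.005), factors of the large subunit, and UTP11 of the processome (0.20 ± 0.04, adjusted p = 0.00266) were also higher. MDN1, a giant ATPase that remodels large subunit precursors, had 199, 233, 209 and 228 CPM with ASO-L1, against 259, 229, 314 and 318 CPM with ASO-Ctr. Its lowest control library, ASO-Ctr 2, lay below the highest ASO-L1 library (-0.37 ± 0.11, adjusted p = 0.0304). The helicase DDX31 (-0.27 ± 0.05, adjusted p = 0.00164), the kinase RIOK2 of small subunit maturation (-0.31 ± 0.06, adjusted p = 0.00225) and the ATPase NVL (-0.28 ± 0.06, adjusted p = 0.00653) were lower as well.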

How the data were processed

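Expression was measured by poly(A) RNA sequencing with a directional kit, per the labels' protocols, in 12 libraries of 3 oligo groups, 4 a group. The submitters' processing notes list hg19, featureCounts (Subread 1.5.0), TopHat2 2.0.13 and Trim Galore 0.4.0, and the strand setting of the counting is not given in the sources used here. The authors deposited raw counts per gene symbol; a row without a name held at most 3 counts a library and was left out. The authors' deposited result table holds log2 fold changes with p-values and adjusted p-values, and its t and B scores were not used. A deposited table of batch-corrected log2 values was not used, since its batches and method are not stated.

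Counts were analysed with edgeR 4.0.16 in R 4.3.3 (filterByExpr by group with least count 10 and least total 15, TMM, robust quasi-likelihood fit of all 12 libraries, 1 mean a group, two-sided). The SE is the size of the log2 fold change over the square root of F. Alternatives were RLE factors, library size alone, no filter, DESeq2 1.42.0, limma 3.58.1 (voom), the 2 compared groups alone, each number set alone, a block for the library number, and each library left out. Same-number libraries of different groups deviated together from their group means in all 12 pairs (r 0.45 to 0.561). Numbers 1 with 2 and 3 with 4 did so about as strongly (0.455 to 0.543), while libraries of the other number set gave -0.53 to -0.426. These values show 2 number sets and do not show that a single number pairs libraries. The main fit had no term for the number or the set, so the step between sets counts as spread in it. Members and gene lists were chosen with earlier results of these data known. Values were printed for 10 fixed genes, for up to 4 members per role and direction with the smallest p among those past the threshold, and for the extremes of each role. NOL6 and RRP9, which had the largest steps between number sets, were printed outside these rules. Promoters and coding lengths came from GRCh38 annotation and were joined by symbol only.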

Additional observations from a re-analysis of the deposited data

Results flagged for a closer look

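The 40 members named in the comparisons were examined in each of the 3 groups, 120 groups of 4 libraries, for a library far from the other 3. Dixon's test marked 4 of them, by the gap to the nearest library over the range; chance marks about 1 in 20 groups. NPM1 stood at 1810 CPM in ASO-L1 3, below the other ASO-L1 libraries. POLR1B stood at 107.7 CPM in ASO-L1 4, above the other 3, which lay very close together. WDR75 stood at 148.6 CPM in ASO-L1 3, below the other ASO-L1 libraries but above every ASO-Ctr library. WDR3 stood at 90.34 CPM in ASO-Ctr 3, below the other ASO-Ctr libraries.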

How the results depend on the processing

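For ASO-L1 over ASO-Ctr the 11 higher members became 32 with the replicate block, 30 with numbers 1 and 2 alone and 27 with numbers 3 and 4 alone, and all genes called became 7747, 6045 and 6103, from 3847. For ASO-L1 over SO-L1 the 10 higher members became 37, 36 and 26 under the same 3 settings and 6 with no filter on low counts, the 4 lower became 7 with numbers 3 and 4 alone, and all genes called became 7469, 5863 and 5861, from 3497. For SO-L1 over ASO-Ctr all genes called went to 8 by library size alone, 8 with no filter, 52 in DESeq2, 243 with the block, 124 with numbers 1 and 2 and 201 with numbers 3 and 4, from 5. The interaction between number sets had 1 member with the block. The block changed no call of SO-L1 against ASO-Ctr among the members. Leaving out each library in turn gave 7 to 12 higher and 4 to 6 lower members for ASO-L1 over ASO-Ctr. All genes called were then 3131 to 3861, and the 7 came without ASO-L1 4 or ASO-Ctr 1. For ASO-L1 over SO-L1 it gave 7 to 11 higher and 3 to 4 lower members, and 2741 to 3446 genes. For SO-L1 over ASO-Ctr it gave 0 members and 5 to 7 genes. Where leaving out a library changed a count, the cause was not tested. Among all members TAF1A had the fewest counts, at 8.72 CPM in its lowest library, so counting error bears most on it.

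Only the 40 named members were followed across settings, each in the comparisons that named it. Others given with a value, such as TAF1C and POLR1C, were not followed. Of the 40, 5 near 0 turned sign. POLR1A among them passed edgeR's test with numbers 1 and 2 alone against both controls. It gave 0.138 over ASO-Ctr (adjusted p = 0.0159) and 0.158 over SO-L1 (adjusted p = 0.00657). The others passed at no setting run in the comparison where they turned. Over all 60 members, the number with a positive value was 49 for ASO-L1 over ASO-Ctr and 43 without ASO-Ctr 1, and 15 for SO-L1 over ASO-Ctr and 8 to 36 with a library left out, the 36 without SO-L1 1 or without SO-L1 2. For ASO-L1 over ASO-Ctr, NPM1 was -0.0018 with RLE factors, -0.0019 in DESeq2, -0.0026 with the 2 groups alone, 0 with numbers 3 and 4, and between -0.023 and 0.0251 with a library left out; POLR1A was -0.0927 with numbers 3 and 4, and between -0.0087 and 0.0502 with a library left out. POLR1A was -0.0032 over SO-L1 with numbers 3 and 4. For SO-L1 over ASO-Ctr, DDX56 was between -0.0209 and 0.0797, BOP1 between -0.1633 and 0.029 and LYAR between -0.0385 and 0.0732 with a library left out, and LYAR was -0.0164 with numbers 1 and 2. With no filter, calls were lost against ASO-Ctr by POLR1E (adjusted p = 0.136), UTP18 (0.146), DDX10 (0.105) and RRP12 (0.0617), and against SO-L1 by POLR1E (0.149), TAF1A (0.145), TCOF1 (0.0612) and WDR3 (0.125). With the compared groups alone, they were lost against ASO-Ctr by POLR1E (0.0534) and UTP18 (0.0818), and against SO-L1 by POLR1E (0.0629), TAF1A (0.0829) and WDR3 (0.0693). RRP12 lost its call by library size alone (0.0584), and TAF1A against SO-L1 with numbers 3 and 4 (0.168). RRN3, HEATR1, NOL8, BRIX1, WDR43, NOL10 and DDX21 kept their calls against both controls under every setting run.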
